A study of Equus caballus with 15 samples.

Results

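The Toll-like receptor (TLR) genes TLR1 to TLR10 were followed in equine monocyte-derived macrophages across 5 culture conditions. Members were chosen by gene symbol alone. Of the 10 symbols, 9 had a row among the 16932 genes listed, and TLR4 was not analysed here. Macrophages were grown from blood mononuclear cells of 2 horses, differentiated over 5 days with human macrophage colony-stimulating factor (M-CSF) at 30 ng/ml. Untreated macrophages received nothing further. IL-1ß macrophages received the inflammatory cytokine interleukin-1ß at 10 ng/ml for 24 h. In the other 3 conditions the same IL-1ß was given together with an orthobiologic therapy (OT) making up 25% of the medium, so that no OT was measured without IL-1ß. The OTs were autologous conditioned serum (ACS), medium conditioned by mesenchymal stromal cells (MSC-CM) and a lysate of platelet-rich plasma (PRP), each prepared from the same 3 donor horses. The main model did not pair OT libraries by donor. Each condition had 3 libraries of polyadenylated RNA. The untreated and IL-1ß libraries are described as technical replicates and the OT libraries as separate donors' products, so p-values measure the spread between these libraries and not the spread between macrophage donors.

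Toll-like receptors recognise conserved microbial molecules and start NF-kB and interferon signaling through adaptors such as MYD88 and TICAM1. TLR2 works at the cell surface with TLR1 or TLR6 to detect bacterial lipopeptides, and TLR5 detects flagellin there. TLR3, TLR7, TLR8 and TLR9 sit in endosomes and detect nucleic acids. Macrophages are a main site of TLR expression, and IL-1 receptors share the MYD88 pathway with most TLRs.

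Levels are given as CPM, read counts scaled to the size of each library, and between 28410735 and 47894068 reads per library were assigned to genes. The first principal component held 55.4% of the variance. Its lowest values were IL-1ß replicate 3 (-103), PRP lysate replicate 1 (-51.7) and MSC-CM replicate 1 (-20.7), while the other 12 libraries lay between -8.15 and 26.6. These 3 are called the libraries that stand apart, though MSC-CM replicate 1 lay much nearer the 12. They were chosen from these same data. TLR calls that change without these 3 libraries are given both ways, as a description and not as added support. Of 10 macrophage markers 9 were listed, all with a mean of at least 1 CPM and summed levels of 2280 to 6658 CPM, although CD14 averaged only 2.49 CPM and ITGAM 2.36 CPM. All 8 T cell markers also averaged over 1 CPM, with summed levels of 837 to 1667 CPM. In bulk RNA, fewer cells of a type and less RNA per cell cannot be told apart.

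The clearest differences among the TLR genes were lower TLR1 and TLR7 with PRP lysate. TLR1 and TLR7 were the 2 of 8 tested members that differed among the 5 conditions in the F test of the limma model (adjusted p = 0.00924 and 0.0110). In the same test 5.4% of all 11628 genes passed. TLR8 and TLR10 also passed it without the 3 libraries that stand apart (adjusted p = 0.00195 and 0.00658, with 19.0% of all genes passing) and without IL-1ß replicate 3 alone (0.0167 and 0.0102, with 8.43%). TLR8 passed the F test with RLE and TMM scaling, 2 other ways of scaling the libraries, and in edgeR (adjusted p = 0.0322, 0.0357 and 0.0415). In the matching test of DESeq2, TLR8, TLR10 and TLR5 passed as well (adjusted p = 0.000151, 0.0281 and 9.04e-05), where 1573 of 14300 genes passed. With PRP lysate, TLR1 was 3.61-fold and TLR7 7.80-fold lower than with IL-1ß alone by mean CPM, and TLR7 was 3.57-fold lower with ACS. IL-1ß against untreated and MSC-CM against IL-1ß gave no TLR call in limma. The test used limma on log2(CPM + 1) over genes averaging at least 1 CPM across libraries, with a gene called at a Benjamini-Hochberg adjusted p of at most 0.05. Fold changes on this log2 scale are smaller than the ratios of CPM for genes of low level. TLR5 averaged under 1 CPM, did not enter this test, and is described by its reads.

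**Figure D1:**
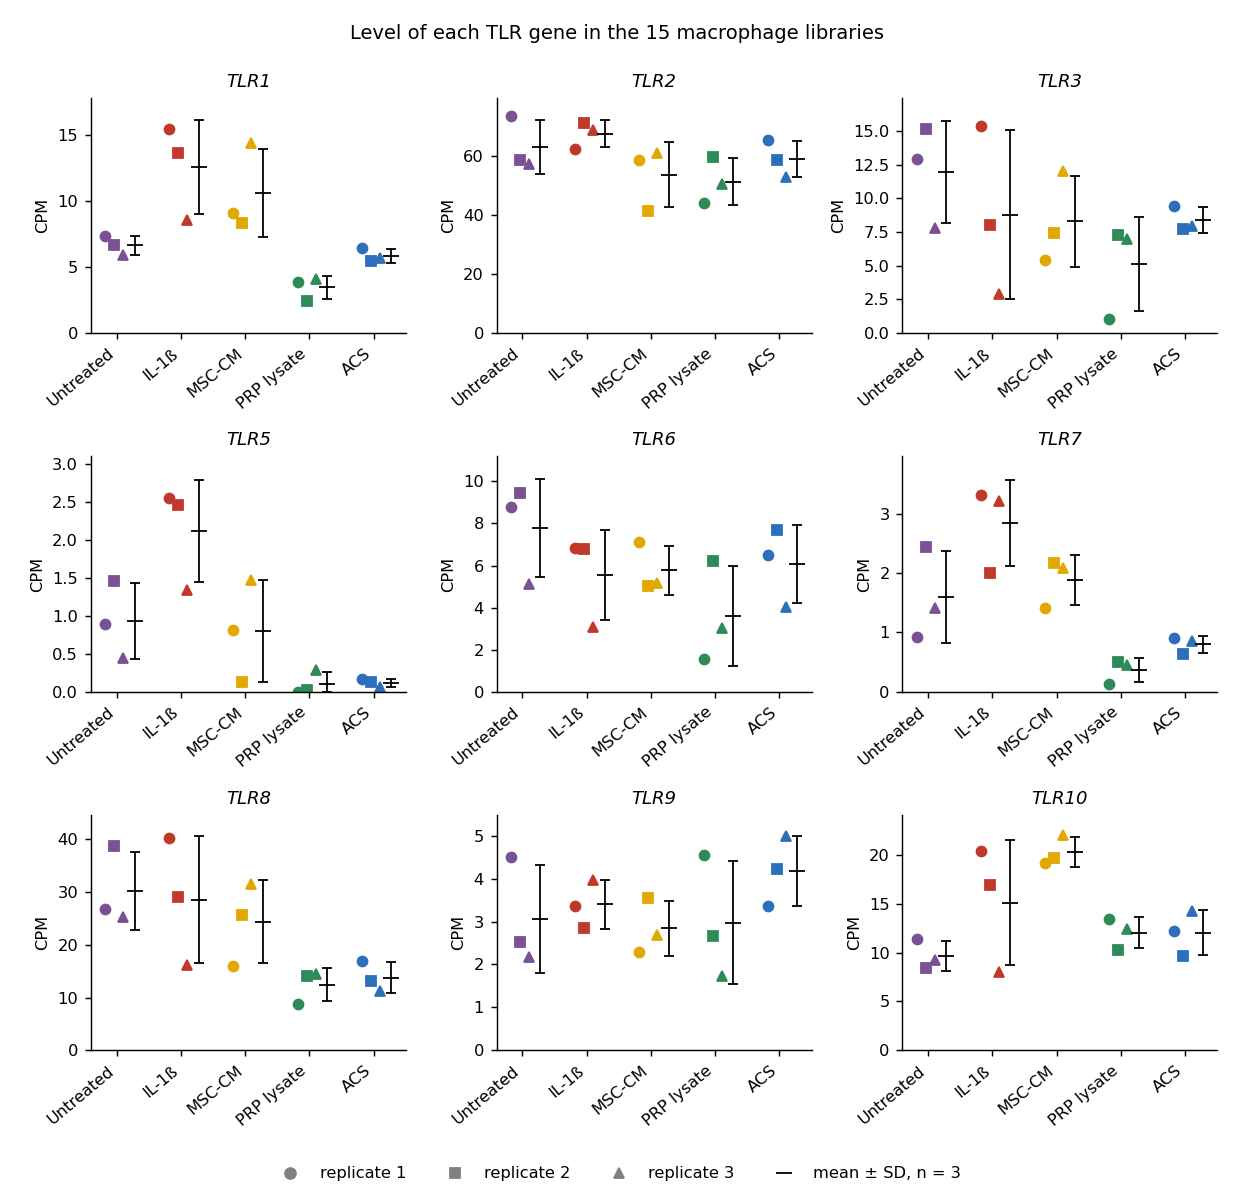
Level in CPM (vertical axes, each starting at 0) of the 9 listed TLR genes in 15 libraries grouped by condition. Symbols are single libraries by replicate number, and horizontal ticks with bars are the mean ± SD of 3 libraries, with the bar of TLR5 in PRP lysate ending at the axis. All 3 PRP lysate libraries lie below the 3 IL-1ß libraries for TLR1, TLR2, TLR5, TLR7 and TLR8.

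TLR2, the shared partner of the lipopeptide receptors, had the narrowest spread of condition means among the members. The gene (ENSECAG00000018028, EquCab3.0 chromosome 2, 80314482 to 80338758) measured 73.5, 58.6 and 57.1 CPM in untreated libraries and 62.4, 71.2 and 68.8 CPM with IL-1ß. It measured 58.7, 41.2 and 61.0 CPM with MSC-CM, 43.9, 59.5 and 50.3 CPM with PRP lysate, and 65.1, 58.5 and 52.9 CPM with ACS. The highest condition mean was 1.32 times the lowest. Every MSC-CM and PRP lysate library lay below the lowest IL-1ß library. Against IL-1ß it had log2 fold changes of -0.34 with MSC-CM (95% interval -0.72 to 0.03) and -0.40 with PRP lysate (95% interval -0.78 to -0.02). Neither passed the test (limma, adjusted p = 0.705 and 0.251).

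TLR1, which joins TLR2 to bind triacylated lipopeptides, was the tested surface receptor whose difference passed. The gene (ENSECAG00000038588) lies on chromosome 3 at 90541505 to 90546196. It measured 7.36, 6.70 and 5.92 CPM in untreated macrophages and 15.5, 13.6 and 8.58 CPM with IL-1ß. Levels were 9.08, 8.33 and 14.4 CPM with MSC-CM, 3.84, 2.46 and 4.12 CPM with PRP lysate, and 6.44, 5.43 and 5.66 CPM with ACS. All PRP lysate libraries were below every library of the other 4 conditions, and all IL-1ß libraries were above every untreated one. In the order of means, IL-1ß overlapped MSC-CM and untreated overlapped ACS, while MSC-CM stood above untreated and ACS above PRP lysate without overlap.

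TLR1 was lower with PRP lysate than with IL-1ß by 1.58 on the log2 scale, 3.47 ± 0.887 against 12.5 ± 3.56 CPM (SD, n = 3). The log2 fold change of -1.58 had an SE of 0.247 and passed (limma, adjusted p = 0.00210). It was also lower with PRP lysate than with MSC-CM, with a log2 fold change of -1.36 (SE 0.247, limma, adjusted p = 0.00670). Both calls held when any 1 of the 6 libraries was left out. With only the 2 groups compared in the fit, neither passed (limma, adjusted p = 0.134 and 0.0680). Across all alternatives the adjusted p against IL-1ß ran from 1.00e-09 to 0.134, and against MSC-CM from 3.39e-06 to 0.0680.

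Against IL-1ß, TLR1 with ACS had a log2 fold change of -0.95 (SE 0.247) with no overlap between the libraries, but it missed the threshold (limma, adjusted p = 0.0555, range over alternatives 0.000726 to 0.244). Without IL-1ß replicate 3 it passed (limma, adjusted p = 0.0185), as it did without all 3 libraries that stand apart (0.00808). TLR1 with ACS against MSC-CM had a log2 fold change of -0.73 (SE 0.247, limma, adjusted p = 0.180, range over alternatives 0.0442 to 0.549), and it passed without those 3 libraries (0.0442). For IL-1ß against untreated, the TLR1 log2 fold change was 0.79 (SE 0.247, limma, adjusted p = 0.204, range over alternatives 0.0322 to 0.663). It passed without the 3 libraries that stand apart (limma, adjusted p = 0.0330) and in DESeq2 on the reads recovered from the CPM (adjusted p = 0.0322). Of all genes, 2.27% and 1.13% were called higher there.

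TLR10, a further TLR2 partner that is strongly expressed in B cells, followed another order. Its row (ENSECAG00000020892) spans 90564669 to 90567105 on chromosome 3, next to TLR1. It measured 11.4, 8.38 and 9.23 CPM untreated, 20.4, 16.9 and 8.02 CPM with IL-1ß, and 19.1, 19.6 and 22.0 CPM with MSC-CM. Levels were 13.4, 10.3 and 12.5 CPM with PRP lysate and 12.2, 9.69 and 14.3 CPM with ACS. The MSC-CM libraries lay above all untreated, PRP lysate and ACS libraries, and IL-1ß replicate 3 lay below every untreated one. The log2 fold change of PRP lysate against MSC-CM was -0.71 (SE 0.272, limma, adjusted p = 0.211, range over alternatives 0.0191 to 0.534), and that of ACS against MSC-CM was -0.72 (SE 0.272, limma, adjusted p = 0.244, range over alternatives 0.0211 to 0.673). Both passed without the 3 libraries that stand apart (limma, adjusted p = 0.0191 and 0.0258), and TLR10 then also passed for IL-1ß against untreated (limma, adjusted p = 0.0265). Without these libraries 8.47% of all genes were called lower for PRP lysate and 5.74% for ACS, both against MSC-CM. Of 8 B cell markers 7 were listed and 5 reached 1 CPM, with sums of 41.3 to 46.3 CPM untreated, 61.7 to 89.4 with IL-1ß, 75.9 to 80.4 with MSC-CM, 35.1 to 70.1 with PRP lysate and 45.9 to 53.6 with ACS. Between conditions this sum was higher with MSC-CM than untreated, with PRP lysate or with ACS, as TLR10 was, but within IL-1ß the order was the opposite. IL-1ß replicates 1, 2 and 3 had sums of 61.7, 76.8 and 89.4 CPM, so the library with the highest B cell sum of all 15 had the lowest TLR10. The part of B cell RNA in the TLR10 values was not tested.

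TLR6, which joins TLR2 to bind diacylated lipopeptides, gave no call. The gene (ENSECAG00000001958, chromosome 3, 90493194 to 90510925) measured 8.79, 9.45 and 5.11 CPM untreated, 6.81, 6.78 and 3.08 CPM with IL-1ß, 7.11, 5.04 and 5.17 CPM with MSC-CM, 1.56, 6.22 and 3.03 CPM with PRP lysate, and 6.49, 7.69 and 4.05 CPM with ACS. Neighbouring conditions overlapped throughout the order of means. Its log2 fold changes against IL-1ß were -0.58 with PRP lysate, 0.10 with MSC-CM and 0.14 with ACS, with 95% intervals of -1.40 to 0.24, -0.73 to 0.92 and -0.69 to 0.96. Leaving out 1 library moved the value with PRP lysate to between -0.97 (without PRP lysate replicate 2) and -0.22 (without PRP lysate replicate 1).

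TLR1, TLR6 and TLR10 are close paralogs in 1 cluster, the strand setting of the counting is not stated, and reads shared between them could have been assigned to either, so the split among them is uncertain. The ratio of TLR1 to TLR10 CPM within a library does not depend on its depth. It was 0.240 to 0.331 with PRP lysate, 0.397 to 0.560 with ACS, 0.424 to 0.653 with MSC-CM, 0.642 to 0.799 untreated and 0.759 to 1.07 with IL-1ß. The TLR1 to TLR10 ratios with PRP lysate lay below those of every other library. The ratio of TLR1 to TLR6 was 0.396 to 2.47 with PRP lysate and overlapped every other condition. The summed CPM of the 3 genes was 18.8 to 19.6 with PRP lysate and 22.8 to 25.1 with ACS, against 20.3 to 27.5 untreated, 19.7 to 42.6 with IL-1ß and 33.0 to 41.6 with MSC-CM.

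TLR5, the flagellin receptor, was close to the detection limit with PRP lysate and ACS. The gene (ENSECAG00000036553, chromosome 30, 10108182 to 10124791) had 0, 1 and 8 reads in the PRP lysate libraries and 6, 5 and 3 reads in the ACS libraries. In CPM this was 0, 0.0239 and 0.282 with PRP lysate and 0.164, 0.132 and 0.0626 with ACS. The library with 0 reads allows up to 0.0806 CPM, the level of 3 reads. IL-1ß libraries measured 2.56, 2.46 and 1.35 CPM, untreated libraries 0.894, 1.46 and 0.451 CPM, and MSC-CM libraries 0.815, 0.129 and 1.47 CPM. All 6 PRP lysate and ACS libraries were below all IL-1ß and all untreated libraries, and the ranges with MSC-CM overlapped.

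Pooled over 3 libraries, TLR5 had 218 reads with IL-1ß, 9 with PRP lysate and 14 with ACS. The pooled levels were 2.17 CPM (95% exact Poisson interval 1.89 to 2.48) with IL-1ß, 0.0838 CPM (0.0383 to 0.159) with PRP lysate and 0.114 CPM (0.0625 to 0.192) with ACS, intervals that cover counting error only. Untreated macrophages had 0.944 CPM (0.769 to 1.15) and MSC-CM 0.827 CPM (0.676 to 1.00). Without the filter on low genes, TLR5 passed for PRP lysate against IL-1ß (limma, log2 fold change -1.49, adjusted p = 0.00903, with 1.95% of all genes called lower) and for ACS against IL-1ß (limma, log2 fold change -1.46, adjusted p = 0.0165, with 1.02% called lower). On recovered reads, edgeR called PRP lysate against IL-1ß (adjusted p = 0.0376) and not ACS against IL-1ß (adjusted p = 0.0615), while DESeq2 called both (adjusted p = 0.000144 and 0.000445). Of all genes, edgeR called 2.6% and 1.3% lower in these comparisons, and DESeq2 4.5% and 3.66%.

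Among the endosomal receptors, TLR7 and TLR8, which detect uridine-rich and other single-stranded RNA, had their lowest means with PRP lysate and ACS. TLR7 (ENSECAG00000007883, chromosome X, 9560461 to 9584654) measured 0.919, 2.44 and 1.41 CPM untreated, 3.31, 2.01 and 3.22 CPM with IL-1ß, and 1.40, 2.16 and 2.08 CPM with MSC-CM. Levels were 0.134, 0.502 and 0.458 CPM with PRP lysate (5, 21 and 13 reads) and 0.900, 0.632 and 0.856 CPM with ACS (33, 24 and 41 reads). Every PRP lysate library was below every ACS library, and all 6 were below the 9 others. IL-1ß, MSC-CM and untreated libraries overlapped.

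TLR7 fell with PRP lysate against IL-1ß, from 2.84 ± 0.726 to 0.365 ± 0.201 CPM (SD, n = 3), with a log2 fold change of -1.49 (SE 0.237, limma, adjusted p = 0.00237, range over alternatives 7.28e-08 to 0.105). The call held without any 1 of the 6 libraries and was lost with only the 2 groups in the fit (adjusted p = 0.105). Against MSC-CM the log2 fold change was -1.08 (SE 0.237, limma, adjusted p = 0.0198, range over alternatives 0.000234 to 0.104). That call was lost without MSC-CM replicate 2 (adjusted p = 0.0821), without MSC-CM replicate 3 (0.104) and with 2 groups only (0.0747).

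With ACS, TLR7 was 0.796 ± 0.144 CPM (SD, n = 3), a log2 fold change of -1.08 against IL-1ß (SE 0.237) that passed by a small margin (limma, adjusted p = 0.0254, range over alternatives 0.00120 to 0.140). It was lost without IL-1ß replicate 3 (adjusted p = 0.0757) or without ACS replicate 1 (0.0657), 2 (0.121) or 3 (0.0858). Without all 3 libraries that stand apart, IL-1ß replicate 3 among them, it passed (limma, adjusted p = 0.0363). It was also lost in edgeR on recovered reads (0.0558), with a pseudocount of 0.1 (0.0598) and with 2 groups only (0.140). ACS against PRP lysate gave a TLR7 log2 fold change of 0.40 (95% interval -0.11 to 0.92, limma, adjusted p = 0.842).

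TLR8 (ENSECAG00000009180) lies beside TLR7 on chromosome X at 9615211 to 9624384. It measured 26.7, 38.7 and 25.2 CPM untreated, 40.2, 29.2 and 16.2 CPM with IL-1ß, 16.0, 25.6 and 31.5 CPM with MSC-CM, 8.79, 14.1 and 14.5 CPM with PRP lysate, and 16.9, 13.1 and 11.2 CPM with ACS. PRP lysate libraries lay below all untreated, IL-1ß and MSC-CM libraries, and ACS libraries lay below all untreated ones. The log2 fold change against IL-1ß was -1.07 with PRP lysate (SE 0.334, limma, adjusted p = 0.0934, range over alternatives 0.00217 to 0.516) and -0.93 with ACS (SE 0.334, limma, adjusted p = 0.154, range over alternatives 0.00339 to 0.396). Neither passed, but the lowest IL-1ß value came from replicate 3, and both passed without it (limma, adjusted p = 0.0148 and 0.0477), where 3.84% and 1.25% of all genes were called lower. Without all 3 libraries that stand apart both passed as well (limma, adjusted p = 0.00566 and 0.00339), with 10.1% and 6.64% of all genes called in either direction. Against MSC-CM, TLR8 had a log2 fold change of -0.89 with PRP lysate (SE 0.334, limma, adjusted p = 0.195, range over alternatives 0.0191 to 0.613) and of -0.75 with ACS (SE 0.334, limma, adjusted p = 0.346, range over alternatives 0.0119 to 0.691). Both passed without the 3 libraries (limma, adjusted p = 0.0191 and 0.0119), where 8.47% and 5.74% of all genes were called lower. MSC-CM replicate 1, left out there, held the lowest MSC-CM value of TLR8. For PRP lysate against IL-1ß, TLR8 also passed with RLE scaling (adjusted p = 0.0319) and in edgeR (0.0370).

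TLR3, a receptor for double-stranded RNA that signals through TICAM1, varied more between libraries than between conditions. The gene (ENSECAG00000000197, chromosome 27, 24238155 to 24254786) measured 12.9, 15.2 and 7.82 CPM untreated, 15.4, 8.05 and 2.94 CPM with IL-1ß, and 5.46, 7.41 and 12.0 CPM with MSC-CM. Levels were 1.07, 7.24 and 7.004 CPM with PRP lysate and 9.46, 7.72 and 7.93 CPM with ACS. The lowest value of the IL-1ß, MSC-CM and PRP lysate conditions came in each case from the library that stands apart. Its log2 fold change against IL-1ß was -0.70 with PRP lysate, 0.09 with MSC-CM and 0.16 with ACS, with 95% intervals of -1.90 to 0.50, -1.11 to 1.29 and -1.04 to 1.36, the widest of the 8 tested members. Leaving out IL-1ß replicate 3 moved the value with PRP lysate to -1.24, leaving out IL-1ß replicate 1 to -0.21, and leaving out PRP lysate replicate 1 to -0.041 (limma, adjusted p = 0.219, 0.809 and 0.957).

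TLR9, which detects unmethylated CpG DNA, showed no call. The gene (ENSECAG00000014294, chromosome 16, 36996439 to 37000679) measured 4.49, 2.52 and 2.16 CPM untreated, 3.36, 2.85 and 3.98 CPM with IL-1ß, 2.29, 3.55 and 2.69 CPM with MSC-CM, 4.54, 2.65 and 1.72 CPM with PRP lysate, and 3.35, 4.21 and 4.99 CPM with ACS. All neighbouring conditions overlapped, and the highest condition mean was 1.47 times the lowest. Its log2 fold change against IL-1ß was -0.20 with PRP lysate (95% interval -0.80 to 0.40) and 0.23 with ACS (95% interval -0.37 to 0.83).

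**Figure D2:**
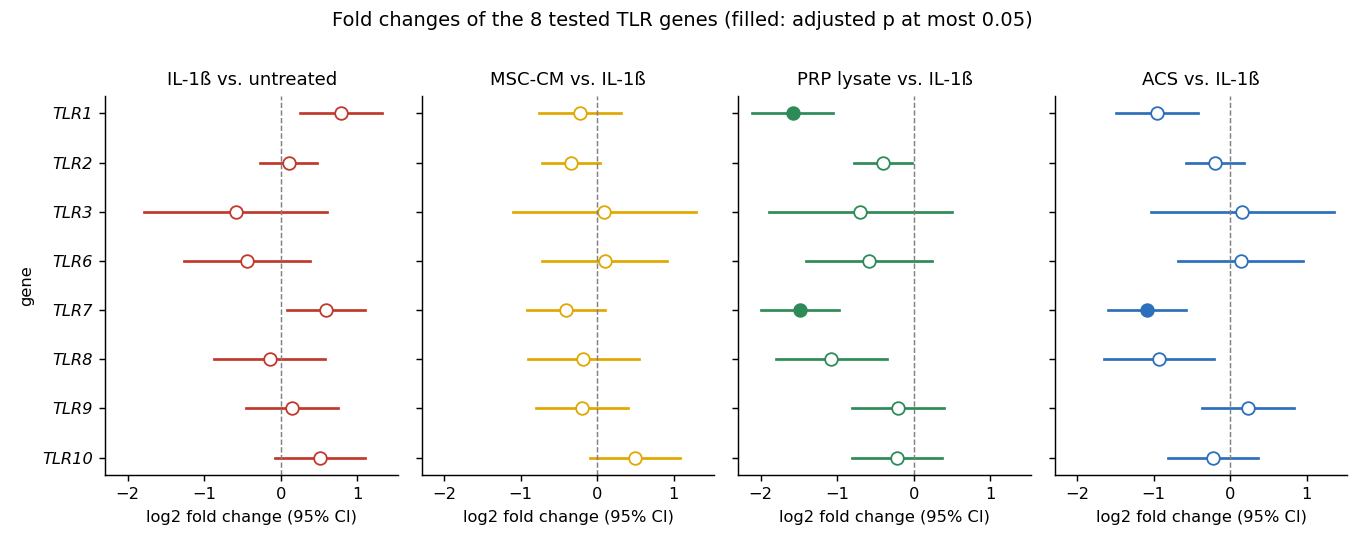
Log2 fold change (horizontal axes, points with 95% intervals) of the 8 tested TLR genes in 4 comparisons, from limma on log2(CPM + 1). Filled points passed at an adjusted p of at most 0.05, which were TLR1 and TLR7 with PRP lysate and TLR7 with ACS, all below 0.

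Set beside all genes, the comparison of PRP lysate with IL-1ß called 2 of 8 members lower and none higher, and 4.94% of all tested genes were called there (3.0% lower). All 8 log2 fold changes were below 0, with a median of -0.64, whereas the median of all genes was 0.11. Libraries did not overlap for 4 of the 8 tested members, all lower with PRP lysate, against 6.47% of all tested genes, and TLR5, which was not tested, was also lower without overlap. ACS against IL-1ß called 1 of 8, where 3.45% of all genes were called (1.68% lower). The median of the 8 log2 fold changes was -0.21, against 0.13 for all genes, and 2 of the 8 did not overlap and were lower, against 11.2% of all tested genes, as was TLR5. Both comparisons share the IL-1ß libraries. RLE scaling, which centres the libraries on their typical gene, moved the median of all genes from 0.11 to 0.02 with PRP lysate and from 0.13 to 0.02 with ACS. The TLR1 and TLR7 log2 fold changes were then -1.67 and -1.56 with PRP lysate and -1.06 and -1.17 with ACS, and TLR1 with ACS passed (limma, adjusted p = 0.0214).

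PRP lysate against MSC-CM called 2 of 8 lower, where 4.22% of all genes were called (2.78% lower), and 4 of the 8 did not overlap and were lower, against 12.1% of all tested genes. The median log2 fold change of the 8 was -0.75, against -0.09 for all genes. ACS against MSC-CM called 0 of 8 in limma, where 1.92% of all genes were called, with 4 of the 8, and 13.5% of all genes, at an unadjusted p under 0.05. In that comparison edgeR and DESeq2, which also tested TLR5, called 0 of 9, and 3 of the 8 did not overlap and were lower, against 22.2% of all tested genes. ACS against PRP lysate called 0 of 8 in limma and 0 of 9 in edgeR and DESeq2, where they called 0.103%, 0.0804% and 0.616% of all genes. TLR1 alone had an unadjusted p under 0.05 in limma, as did 5.19% of all genes. TLR1, TLR3 and TLR7 did not overlap and were higher with ACS, against 8.97% of all genes.

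IL-1ß against untreated called 0 of 8 in limma, 0 of 9 in edgeR and 1 of 9 in DESeq2, where 0.387%, 0.241% and 2.45% of all genes were called. In limma 2 of the 8 had an unadjusted p under 0.05, as did 1506 of all 11628 genes. Only TLR1 did not overlap, higher with IL-1ß, against 7.98% of all genes. MSC-CM against IL-1ß called 0 of 8 in limma and 0 of 9 in edgeR and DESeq2. In limma 0 of the 8 had an unadjusted p under 0.05, 0.0% of all genes were called and 651 had an unadjusted p under 0.05, while edgeR called 0 and DESeq2 2 of all genes. Only TLR2 did not overlap, lower with MSC-CM, against 1.54% of all genes. RLE scaling moved the median of all genes in this comparison from 0.16 to 0.00, and the TLR3 and TLR6 log2 fold changes of 0.09 and 0.10 became -0.052 and -0.045. Set beside untreated macrophages without a test, TLR1, TLR3, TLR7, TLR8 and the untested TLR5 lay lower without overlap in PRP lysate, against 8.41% of all tested genes. TLR7, TLR8 and TLR5 lay lower in ACS, against 10.0%, and TLR1 and TLR10 lay higher in MSC-CM, against 21.9%.

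Summed marker levels of other cell types were compared between the same conditions. Of 6 neutrophil markers 3 were listed, and CSF3R made up nearly all of their sum, with the other two, MPO and ELANE, averaging 0.780 and 0.109 CPM. The sum was 309 to 391 CPM with IL-1ß, 485 to 546 CPM with PRP lysate and 530 to 759 CPM with ACS. Against IL-1ß it was higher with both OTs, whereas between these OTs TLR7 was lower with PRP lysate without overlap and the sums overlapped. MPO went the other way without overlap, at 0.795 to 3.81 CPM with IL-1ß, 0 to 0.0478 with PRP lysate and 0 to 0.273 with ACS. The T cell marker sum was 902 to 1136 CPM untreated, 1179 to 1667 with IL-1ß, 1488 to 1546 with MSC-CM, 837 to 1651 with PRP lysate and 864 to 1043 with ACS. It was higher with IL-1ß and MSC-CM than with ACS or untreated without overlap, while PRP lysate overlapped IL-1ß through replicate 1 alone (1651 CPM), with the others at 837 and 999 CPM. The highest T cell sums of all 15 libraries were those of IL-1ß replicate 3 (1667 CPM) and PRP lysate replicate 1, both of which stand apart. These libraries had the highest CD3E of all 15 (520 and 507 CPM) but the lowest CD4 of their conditions (250 and 194 CPM). Gene by gene the T cell sum was not borne out. Of its 8 genes only CD8A was lower without overlap with ACS than with IL-1ß, and only CD4 with PRP lysate. The other 7 overlapped in each comparison. The macrophage marker sum was 3795 to 6658 CPM with IL-1ß, 2280 to 4472 CPM with PRP lysate and 3861 to 5169 CPM with ACS. It overlapped through IL-1ß replicate 3 alone (3795 CPM), since the other IL-1ß libraries, at 6658 and 5594 CPM, lay above every PRP lysate and ACS library. Without that library the macrophage marker sum was lower with both OTs, and TLR8 with both OTs and TLR1 with ACS passed. A link between the 2 was not tested. Without it CD68 still overlapped IL-1ß with both OTs, and MRC1 overlapped with ACS but not with PRP lysate. Of the 9 genes of the macrophage sum, 7 overlapped between PRP lysate and IL-1ß and 6 between ACS and IL-1ß, over all 3 IL-1ß libraries. The remaining 2 and 3 were lower, where 6.47% and 11.2% of all tested genes were lower without overlap. Among the overlapping genes CD68 had means of 1630, 1660 and 1631 CPM with IL-1ß, PRP lysate and ACS, and MSR1 158, 154 and 155 CPM. CD163 and AIF1, picked out after their values were seen, were lower with both than with IL-1ß without overlap, and CD14 was lower with ACS. CD163, a scavenger receptor for hemoglobin, was 365 to 685 CPM with IL-1ß, 7.34 to 13.4 with PRP lysate and 43.2 to 92.0 with ACS. AIF1, an actin-binding protein of macrophages, was 22.1 to 28.1 CPM with IL-1ß, 8.63 to 9.86 with PRP lysate and 9.77 to 13.3 with ACS. CSF1R, the receptor for M-CSF, overlapped, at 227 to 470 CPM with IL-1ß, 94.3 to 244 with PRP lysate and 248 to 351 with ACS. Dendritic cell markers gave 9.72 to 27.7 CPM with IL-1ß, 12.7 to 26.2 with PRP lysate and 26.6 to 34.1 with ACS, with CLEC9A at 0.00624 and CD1C at 0.0179 CPM on average. TCF4 had the largest mean, 16.5 CPM. FLT3 went another way than the sum, with means of 4.50, 0.951 and 2.53 CPM. It was the only 1 of the 6 listed that did not overlap IL-1ß, with PRP lysate and with ACS. Fibroblast markers summed to at most 2.94 CPM. The part of any of these in the TLR values was not tested.

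**Figure D3:**
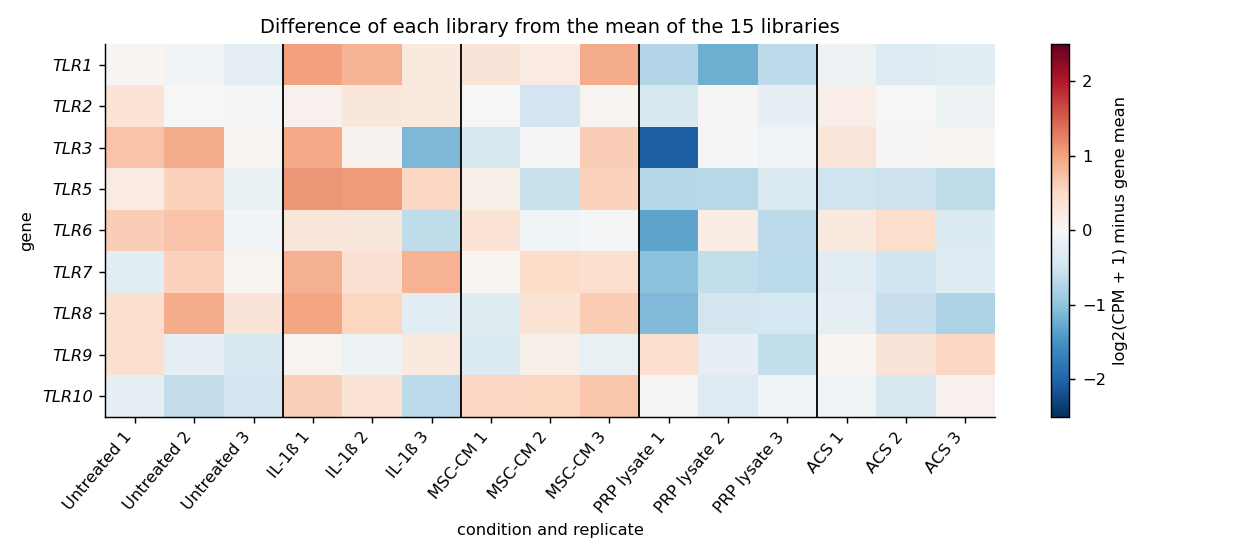
Difference of each of 15 libraries (columns, grouped by condition) from the gene's mean over all libraries for the 9 listed TLR genes (rows), in log2(CPM + 1) by colour, with red above and blue below the mean. PRP lysate libraries are below the mean for TLR1, TLR5, TLR7 and TLR8, and PRP lysate replicate 1 and IL-1ß replicate 3 are low for TLR3.

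As a description over 15 libraries that share conditions and depth differences, members did not all move alike. After each condition's mean was subtracted, TLR3 and TLR8 had a Pearson correlation of 0.88, TLR1 and TLR10, whose reads may be split uncertainly, of 0.76, and TLR3 and TLR6 of 0.71, whereas TLR1 and TLR7 had -0.11. Without that subtraction, TLR1 and TLR7 had 0.80. The genes with the pattern most like TLR1 were PFKFB3, a regulator of glycolysis, and WDR59, a regulator of mTORC1, each at 0.95. The genes most like TLR7 were NLRP12 at 0.90, an NLR family member, and ENSECAG00000002438 at 0.88. Without IL-1ß replicate 3 these were 0.95, 0.95, 0.88 and 0.91 over 14 libraries.

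In the wider TLR machinery 3 genes passed with PRP lysate against IL-1ß, and each of these calls was lost with only the 2 groups in the fit. Of 34 genes in a list of TLR co-receptors, trafficking factors, adaptors, kinases and ligases, and inhibitors, 32 were tested, and LBP and SARM1 were too low. Against IL-1ß, PRP lysate called 2 of 32 lower and 1 higher, against 4.94% of all genes in either direction. The list's median log2 fold change was -0.02, against 0.11 for all genes.

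TASL, the adaptor that links endosomal TLR7, TLR8 and TLR9 to IRF5, was the largest fall. Its row (ENSECAG00000002257, chromosome X, 24973749 to 24974643) measured 9.68, 10.6 and 4.12 CPM untreated, 17.3, 12.4 and 6.98 CPM with IL-1ß, 9.29, 8.51 and 13.8 CPM with MSC-CM, 1.56, 1.70 and 2.11 CPM with PRP lysate, and 4.88, 3.19 and 4.197 CPM with ACS. All PRP lysate and ACS libraries were below all IL-1ß and MSC-CM libraries. For PRP lysate it had a log2 fold change of -2.17 against IL-1ß (SE 0.343, limma, adjusted p = 0.00229) and -2.03 against MSC-CM (SE 0.343, limma, adjusted p = 0.00418). Both held without any 1 library, and the first was lost with 2 groups only (adjusted p = 0.0817). ACS against IL-1ß gave -1.31 and missed the threshold (limma, adjusted p = 0.0567), but passed without IL-1ß replicate 3 (0.0190) and without the 3 libraries that stand apart (0.00907). ACS against MSC-CM gave -1.17 (limma, adjusted p = 0.121) and passed without those 3 libraries (0.0327).

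CD36, a scavenger receptor that presents lipopeptides to TLR2 and TLR6, was also lower with PRP lysate. The gene (ENSECAG00000015229, chromosome 4, 488367 to 719342) measured 185, 277 and 154 CPM untreated, 252, 218 and 105 CPM with IL-1ß, 135, 163 and 275 CPM with MSC-CM, 20.9, 77.2 and 58.1 CPM with PRP lysate, and 72.2, 74.8 and 58.8 CPM with ACS. Its log2 fold change with PRP lysate was -1.95 against IL-1ß (SE 0.448, limma, adjusted p = 0.0228) and -1.98 against MSC-CM (SE 0.448, limma, adjusted p = 0.0237). The first was lost without IL-1ß replicate 1 (adjusted p = 0.0630) or 2 (0.0892) and the second without MSC-CM replicate 2 (0.0610) or 3 (0.136), and both with 2 groups only (0.304 and 0.112). With ACS, CD36 had log2 fold changes of -1.38 against IL-1ß and -1.41 against MSC-CM (limma, adjusted p = 0.119 and 0.152), and both passed without the 3 libraries that stand apart (0.00116 and 0.00206). CD36 was the gene whose pattern over 15 libraries was most like that of TLR8, with a Pearson correlation of 0.94, a likeness picked out after the values were seen.

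TICAM1, the adaptor TRIF that carries the signal of TLR3, rose with PRP lysate. The gene (ENSECAG00000004791, chromosome 7, 3401414 to 3403564) measured 50.7, 54.6 and 71.8 CPM untreated, 44.5, 32.6 and 40.1 CPM with IL-1ß, 41.4, 51.3 and 40.2 CPM with MSC-CM, 79.3, 74.3 and 73.7 CPM with PRP lysate, and 52.0, 57.5 and 60.9 CPM with ACS. Every PRP lysate library was above all others. The log2 fold change of PRP lysate was 0.95 against IL-1ß (SE 0.163, limma, adjusted p = 0.00396) and 0.77 against MSC-CM (SE 0.163, limma, adjusted p = 0.0163). With 2 groups only neither passed (0.144 and 0.0673). The first held without any 1 library, and the second was lost without MSC-CM replicate 1 (0.0717), MSC-CM replicate 3 (0.0974) or PRP lysate replicate 2 (0.0507).

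**Figure D4:**
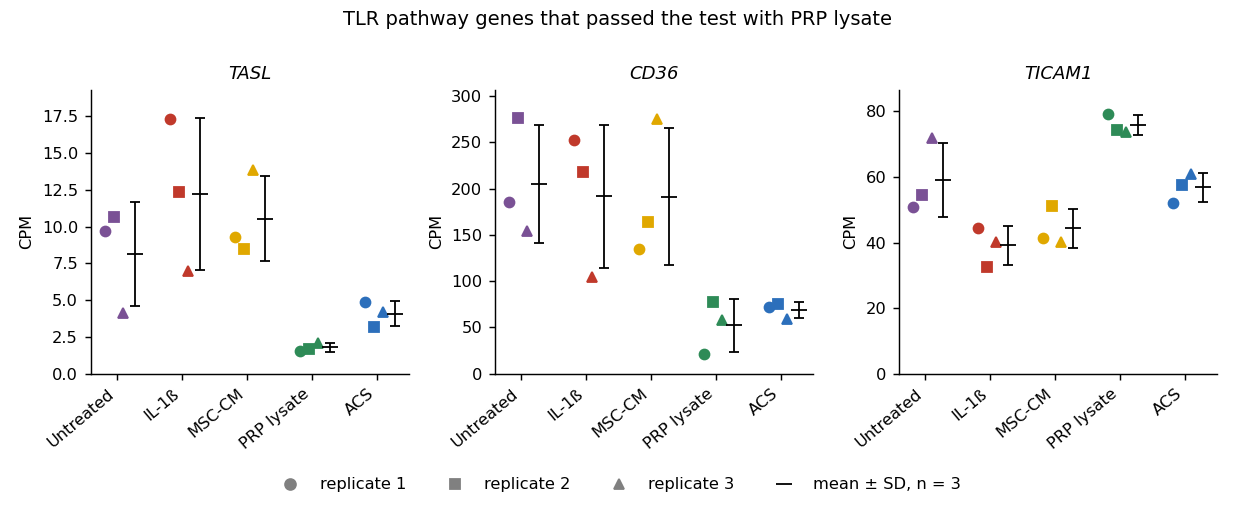
Level in CPM (vertical axes, each starting at 0) of TASL, CD36 and TICAM1 in 15 libraries grouped by condition, with symbols for replicates and ticks with bars for the mean ± SD of 3 libraries. PRP lysate libraries are below all IL-1ß and MSC-CM libraries for TASL and CD36 and above all other libraries for TICAM1.

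With all 15 libraries and no further scaling, the other 29 tested machinery genes passed in no comparison with limma. With RLE and TMM scaling, HSP90B1 passed for PRP lysate against IL-1ß (limma, adjusted p = 0.0319 and 0.0372), TNFAIP3 for PRP lysate against MSC-CM (0.0325 and 0.0364), and NRROS (0.0448 and 0.0467) and TRAF6 (0.0283 and 0.0285) in the F test. Without the 3 libraries that stand apart, PRP lysate against IL-1ß also called HSP90B1, the TLR chaperone gp96, IRAK3, an inhibitory IRAK, and PIK3AP1, the adaptor BCAP (limma, adjusted p = 0.0248, 0.0226 and 0.0343), where 10.1% of all genes were called. Their log2 fold changes over all libraries were -0.58, -0.89 and -1.20. HSP90B1 and IRAK3 also passed without IL-1ß replicate 3 alone (limma, adjusted p = 0.0168 and 0.0249). Without IL-1ß replicate 1, limma called IRAK2 higher and LY86 lower with PRP lysate against IL-1ß, kept TASL and TICAM1 and lost CD36, where 5.49% of all genes were called. In the same setting ACS against IL-1ß called IRAK2 and TICAM1 higher and CD14 and UNC93B1 lower, where 10.1% of all genes were called against 3.45% with all libraries. Without the 3 libraries, HSP90B1 passed as well for ACS against IL-1ß and against MSC-CM (limma, adjusted p = 0.0241 and 0.0307), and SIGIRR for ACS against MSC-CM (0.0435). PRP lysate against MSC-CM then called 8 of 32, with HSP90B1, LY96, SLC15A3, IRAK3 and SIGIRR added (limma, adjusted p = 0.0309, 0.0301, 0.0362, 0.0330 and 0.0341), where 13.0% of all genes were called. By group and with all libraries, PRP lysate against IL-1ß called 1 of 5 co-receptors, 1 of 8 folding and trafficking genes, 1 of 5 adaptors, 0 of 9 kinases and ligases, and 0 of 5 inhibitors. The inhibitor TNFAIP3, the ubiquitin-editing enzyme A20, had the next largest log2 fold change upward, 0.82 with PRP lysate (limma, adjusted p = 0.0784). PRP lysate against MSC-CM called the same 3 genes, where 4.22% of all genes were called, and the other 5 comparisons called 0 of 32 in limma with all libraries. With only the 2 groups in the fit, ACS against MSC-CM called CD36, HSP90B1, SIGIRR and TASL lower (limma, adjusted p = 0.00617, 0.0334, 0.00789 and 0.00930). It called NRROS and SLC15A3 higher (limma, adjusted p = 0.0438 and 0.0202). The share of all genes called in that fit is not given here. With IL-1ß alone SIGIRR, a negative regulator of IL-1 and TLR signaling, had the highest value, 0.84 (limma, adjusted p = 0.384), and CD180, an LPS-response modulator, the lowest, -1.05 (limma, adjusted p = 0.517). Both rested on IL-1ß replicate 3: without it SIGIRR was 0.46 and CD180 -0.16, and TASL (0.87) and LY86 (-0.66), a partner of CD180, were then the highest and lowest.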

How the data were processed

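Polyadenylated RNA of 5 macrophage conditions was sequenced in 3 libraries each. Values are CPM as deposited by the authors. They had trimmed reads at a Phred score of 20, taken off adapters with cutadapt, aligned the reads to the EquCab3.0 genome by STAR 2.7.3, and used HTseq within Partek Flow to count reads on Ensembl genes. The sources differ on whether RNA was taken directly after the 24 h treatment or after further culture. The strand setting is not given in the sources used here. Every one of the 15 columns carried the name of 1 sample (0 unmatched). Of 253980 values, 99.98% were whole multiples of 1 read within 0.05 read, and 1 read was worth 0.0209 to 0.0352 CPM.

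The 11628 genes averaging at least 1 CPM were tested with limma 3.58.1 in R 4.3.3, with an intensity trend, on log2(CPM + 1) in 1 model of 5 conditions, with Benjamini-Hochberg adjustment within each comparison. Alternatives were a pseudocount of 0.1, no filter, RLE and TMM scaling, edgeR 4.0.16 and DESeq2 1.42.0 on recovered reads, only the 2 groups compared, the replicate number as a block, a 2-fold minimum, and leaving out libraries. Scripts were tested on simulated data. Members, lists, named genes (all members, and listed machinery genes called or with the largest changes) and tests were chosen with earlier results of these data known. Levels were not compared between genes, since no transcript lengths of this build were used here, and no sequence is shown.

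For PRP lysate with MSC-CM, the correlations of same-numbered libraries' deviations from their condition means were 0.63, 0.26 and 0.42. Libraries of different numbers were not correlated, so pairing by number was not tested. The labels do not say that a number marks a shared donor. In the other 5 pairs of numbered conditions at least 1 correlation was not over 0.1.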

Additional observations from a re-analysis of the deposited data

How the results depend on the processing

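Among 56 TLR fold changes, 872 alternative values were computed: 774 kept direction and side of the threshold, 13 lost and 26 gained significance, and 59 changed sign, none of them of the 5 called. The values that changed sign were at most 0.45 in size on the log2 scale, with adjusted p of at least 0.505. Over all genes, the median log2 fold change per comparison lay between -0.09 and 0.16, and with RLE scaling between -0.02 and 0.02.

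Counts of TLR genes called moved as follows. IL-1ß against untreated went from 0 to 1 in DESeq2 and 2 without the 3 libraries that stand apart. PRP lysate against IL-1ß went from 2 to 4 in edgeR and DESeq2, 3 without the filter, with RLE, with TMM, without the 3 libraries and without IL-1ß replicate 3, and 0 with 2 groups only. ACS against IL-1ß went from 1 to 0 with a pseudocount of 0.1 and with 2 groups only, 2 without the filter, with RLE and with TMM, 4 in DESeq2, 3 without the 3 libraries, and 0 to 2 when leaving out each library. PRP lysate against MSC-CM went from 2 to 0 with 2 groups only, 3 in DESeq2, 4 without the 3 libraries and 1 to 2 when leaving out each library. ACS against MSC-CM went from 0 to 3 with 2 groups only and without the 3 libraries. The F test went from 2 to 5 in DESeq2, 3 with RLE, TMM, edgeR and no filter, 4 without the 3 libraries and 2 to 4 when leaving out each library, with 4 without IL-1ß replicate 3. Machinery genes called rose in DESeq2 to 2 (IL-1ß against untreated), 7 (PRP lysate against IL-1ß), 5 (ACS against IL-1ß), 5 (PRP lysate against MSC-CM), 3 (ACS against MSC-CM) and 9 (F test), to 1 with RLE and with edgeR for ACS against IL-1ß, and to 5 with RLE for the F test. With 2 groups only, PRP lysate lost CD36, TASL and TICAM1 against IL-1ß, and CD36 and TICAM1 against MSC-CM. ACS against MSC-CM then gained CD36, HSP90B1, NRROS, SIGIRR, SLC15A3 and TASL. In alternatives chosen after seeing the data, machinery calls without the 3 libraries were 6 (PRP lysate against IL-1ß), 8 (PRP lysate against MSC-CM), 3 (ACS against IL-1ß), 4 (ACS against MSC-CM) and 9 (F test), from 3, 3, 0, 0 and 3. Leaving out each library gave 2 to 5 for PRP lysate against IL-1ß (5 without IL-1ß replicate 3), 1 to 4 for PRP lysate against MSC-CM (1 without MSC-CM replicate 3), 0 to 4 for ACS against IL-1ß (4 without IL-1ß replicate 1, 1 without replicate 3) and 1 to 5 for the F test (5 without IL-1ß replicate 1 or 3, 1 without PRP lysate replicate 3). Calls over all genes moved too. DESeq2 called 2.45%, 7.46%, 6.64%, 6.23% and 3.83% of all genes and, in the F test, 1573 of 14300 genes in the same order, against 0.387%, 4.94%, 3.45%, 4.22%, 1.92% and 5.4% in limma. Without the 3 libraries limma called 3.53%, 10.1%, 6.64%, 13.0%, 8.72% and 19.0%. For PRP lysate against IL-1ß, ACS against IL-1ß and the F test, limma called 5.1%, 3.45% and 5.59% with RLE. The shares were 5.07%, 3.48% and 5.62% with TMM, 3.27%, 2.16% and 3.54% without the filter, and 3.85%, 2.34% and 3.83% in edgeR. Shares for fits of 2 groups and for the pseudocount of 0.1 are not given here, so those counts have no background beside them. The cause of these moves was not tested.

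With the replicate number as a block, the TLR counts stayed at 0 for IL-1ß against untreated, 0 for MSC-CM against IL-1ß, 2 for PRP lysate against IL-1ß and 2 for PRP lysate against MSC-CM. The calls over all genes went from 45 to 8, 0 to 0, 574 to 468 and 491 to 364. ACS libraries carry no replicate number in the labels, so no paired fit of ACS was made. Of 18 same-numbered pairs 11 had correlations over 0.1, from -0.77 to 0.63, and only PRP lysate with MSC-CM had all 3 over 0.1. Libraries of different numbers were not correlated, so these values cannot show that numbers pair libraries.

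Signs changed without the 3 libraries for IL-1ß against untreated (TLR8 0.20), MSC-CM against IL-1ß (TLR3 -0.22, TLR6 -0.35), ACS against IL-1ß (TLR3 -0.38, TLR6 -0.18), PRP lysate against MSC-CM (TLR2 0.12), ACS against MSC-CM (TLR3 -0.16) and ACS against PRP lysate (TLR8 -0.073, TLR10 0.069). For MSC-CM against IL-1ß, TLR3 and TLR6 gave -0.052 and -0.045 with RLE, -0.025 and -0.019 with TMM, -0.16 and -0.031 in edgeR, and -0.19 and -0.070 in DESeq2. TLR3 for ACS against IL-1ß gave -0.12 in edgeR and -0.12 in DESeq2. For PRP lysate against MSC-CM, TLR2 gave 0.026 with RLE, 0.0056 with TMM and 0.0073 in DESeq2, and TLR9 gave 0.066 with RLE, 0.051 with TMM, 0.15 in edgeR and 0.18 in DESeq2.

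Leaving out each library gave these ranges where the sign changed. Against IL-1ß, MSC-CM gave -0.45 to 0.58 for TLR3, -0.22 to 0.25 for TLR6 and -0.53 to 0.11 for TLR8. PRP lysate gave -0.47 to 0.041 for TLR9 and -0.59 to 0.029 for TLR10. ACS gave -0.38 to 0.65 for TLR3, -0.18 to 0.36 for TLR6 and -0.60 to 0.022 for TLR10. IL-1ß against untreated gave -0.43 to 0.20 for TLR8 and -0.0085 to 0.39 for TLR9. PRP lysate against MSC-CM gave -0.23 to 0.050 for TLR2 and -0.27 to 0.24 for TLR9. ACS against MSC-CM gave -0.028 to 0.25 for TLR2, -0.16 to 0.34 for TLR3 and -0.13 to 0.27 for TLR6. ACS against PRP lysate gave -0.073 to 0.27 for TLR8 and -0.13 to 0.13 for TLR10. Levels per kilobase were not run, for want of lengths of this build. Depth limits TLR5, and TLR7 with PRP lysate (5, 21 and 13 reads). The 3-read floor was 0.0626 to 0.106 CPM per library.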
